A study of Mus musculus with 2 samples.

Results

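The mitosis and kinetochore genes described here are 50 genes of the machinery that condenses, attaches and separates chromosomes and then cuts the cell apart, out of 21670 protein-coding genes on the X chromosome and the autosomes. They were taken as a fixed list by name, not by any measured value, and all 50 were found in the GENCODE M21 annotation on GRCm38 (mm10). For each gene the deposited peaks within 500 bp of any coding start, the distal peaks within 50 kb and the footprints around those starts were read out in each library.

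The series holds DNase-seq of cerebellum from male B6CASTF1/J mice at 4 days of age, in 2 libraries given as biological replicates of 1 group. DNase-seq maps chromatin that the enzyme DNase I can cut, and a peak marks a stretch cut more often than its surroundings. Each library was made from tissue of 3 males, and their labels name different tissue samples but the same donor entry. There was no treatment, no mutant and no second tissue, so every comparison below is a description of these libraries, with no test. B6CASTF1/J is an F1 hybrid strain, and the deposited values do not separate its parental alleles.

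In mitosis the kinase Cdk1, switched on by cyclins, starts chromosome condensation and spindle assembly. Kinetochores built on centromeres then catch microtubules, the spindle checkpoint holds back anaphase until every chromosome is attached, and separase and a contractile ring finish the division. Many of these genes are switched on together late in the cell cycle. Their promoters often carry a cell cycle genes homology region (CHR), read by the MuvB core of the DREAM and B-MYB complexes, and CCAAT boxes read by NF-Y. In the newborn mouse cerebellum, the progenitors of granule neurons divide in the outer layer of the cortex.

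Promoter sequence tables from RefSeq (GRCm38.p6), with 250 bases before and 50 after each listed start, held 42 of the 50 genes in 47 listed promoters. Aurkb, Ccna2, Cdc25c, Incenp, Kif20a, Smc4, Spc24 and Tpx2 were not listed. The 8 promoters below are those with the highest mean percentile rank of peak value over the libraries, among the genes that had a CHR, a CCAAT box and footprints in both libraries. They are shown for the arrangement of these elements around the start. Having both elements was a condition of this choice, and 28 of the 42 listed genes had both. Capitals mark CHR elements, read as TTTGAA or TTCGAA on the printed strand or TTCAAA for the opposite strand, and CCAAT boxes, read as CCAAT or as ATTGG for the opposite strand. Where a gene had more than 1 listed promoter, the first is printed. Positions are counted from the listed start, the base after the first 250 printed, and negative positions lie before it.
Kifc1, chr17:33890584-33890883, minus strand: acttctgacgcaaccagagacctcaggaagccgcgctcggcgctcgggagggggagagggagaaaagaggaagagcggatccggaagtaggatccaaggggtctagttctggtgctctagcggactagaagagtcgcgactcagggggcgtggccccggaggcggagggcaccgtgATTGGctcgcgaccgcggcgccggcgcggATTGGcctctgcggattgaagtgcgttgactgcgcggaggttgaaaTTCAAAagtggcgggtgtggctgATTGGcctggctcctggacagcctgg
Ncapg, chr5:45669675-45669974, plus strand: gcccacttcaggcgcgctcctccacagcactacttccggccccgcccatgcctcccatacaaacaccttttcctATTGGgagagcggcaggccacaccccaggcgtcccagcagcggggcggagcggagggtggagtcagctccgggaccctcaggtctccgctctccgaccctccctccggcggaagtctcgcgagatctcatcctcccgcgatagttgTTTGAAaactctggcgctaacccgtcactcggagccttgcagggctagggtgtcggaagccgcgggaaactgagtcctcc
Ect2, chr3:27153829-27154128, minus strand: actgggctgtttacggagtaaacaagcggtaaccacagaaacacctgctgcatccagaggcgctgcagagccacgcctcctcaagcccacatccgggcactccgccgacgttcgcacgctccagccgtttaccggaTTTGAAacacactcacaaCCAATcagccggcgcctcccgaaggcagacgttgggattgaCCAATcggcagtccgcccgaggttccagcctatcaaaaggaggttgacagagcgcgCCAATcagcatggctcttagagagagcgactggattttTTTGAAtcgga
Prc1, chr7:80294201-80294500, plus strand: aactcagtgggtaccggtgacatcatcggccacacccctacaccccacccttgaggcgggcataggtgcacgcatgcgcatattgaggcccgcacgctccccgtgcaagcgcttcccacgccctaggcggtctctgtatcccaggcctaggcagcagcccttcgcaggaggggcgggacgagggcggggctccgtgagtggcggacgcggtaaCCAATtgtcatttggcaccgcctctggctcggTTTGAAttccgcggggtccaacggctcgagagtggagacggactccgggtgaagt
Cenpf, chr1:189688037-189688336, minus strand: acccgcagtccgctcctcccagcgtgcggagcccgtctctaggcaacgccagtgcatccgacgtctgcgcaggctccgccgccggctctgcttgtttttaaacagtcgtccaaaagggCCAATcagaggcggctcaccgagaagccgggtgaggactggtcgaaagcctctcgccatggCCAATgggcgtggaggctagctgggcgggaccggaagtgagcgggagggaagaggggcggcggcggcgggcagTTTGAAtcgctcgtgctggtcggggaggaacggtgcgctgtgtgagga
Kif23, chr9:61946750-61947049, minus strand: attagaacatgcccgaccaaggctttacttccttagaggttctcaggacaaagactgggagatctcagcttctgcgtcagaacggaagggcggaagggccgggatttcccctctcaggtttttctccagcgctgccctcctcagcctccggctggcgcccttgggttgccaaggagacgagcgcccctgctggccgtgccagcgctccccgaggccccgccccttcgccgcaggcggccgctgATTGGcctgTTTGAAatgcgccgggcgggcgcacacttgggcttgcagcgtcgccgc
Bub1, chr2:127831810-127832109, minus strand: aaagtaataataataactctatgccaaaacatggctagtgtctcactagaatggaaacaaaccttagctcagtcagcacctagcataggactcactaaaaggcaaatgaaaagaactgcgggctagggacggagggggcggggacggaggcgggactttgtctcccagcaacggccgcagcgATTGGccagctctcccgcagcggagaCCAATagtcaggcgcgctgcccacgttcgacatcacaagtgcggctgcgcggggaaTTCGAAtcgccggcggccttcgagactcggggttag
Cdk1, chr10:69352863-69353162, minus strand: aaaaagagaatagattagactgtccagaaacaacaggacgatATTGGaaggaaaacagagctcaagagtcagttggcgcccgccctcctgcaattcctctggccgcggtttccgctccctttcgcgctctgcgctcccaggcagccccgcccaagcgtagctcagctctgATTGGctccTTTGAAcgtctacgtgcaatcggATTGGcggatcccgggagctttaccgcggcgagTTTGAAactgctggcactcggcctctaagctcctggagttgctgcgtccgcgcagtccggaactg
In Kifc1, Cenpf, Kif23 and Bub1 the CHR began 1, 2, 2 and 14 bases after the start. Ect2 had a CHR 39 bases after the start and a further one at -114, neither of them in a peak of either library. In Ncapg and Prc1 it began at positions -30 and -5, and Cdk1 had a CHR at -15 and a further one at -71. The nearest CCAAT box on the upstream side was measured from the CHR nearest the start. It began 46 bases before that CHR in Kifc1, 38 in Ect2, 32 in Prc1 and 73 in Cenpf. The distance was 9 bases in Kif23, 56 in Bub1, 33 in Cdk1 and 146 in Ncapg.

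The promoters of these genes were open as a class. A promoter peak was present in both libraries in 49 of the 50 genes, against 58.9% of all protein-coding genes. Replicate 1 alone gave 49, against 59.9%, and replicate 2 alone 49, against 65%. In the stricter deposited list the count was also 49, against 52.3%. Sequence composition moved with this count. The median number of CpG dinucleotides in a listed promoter was 24 in the mitotic genes, against 15 over all genes with a listed promoter. A level of 15.1 was set from the low end of the mitotic genes' own values. That 37 of the 42 listed mitotic genes reached it therefore follows from how it was set. Of the 8215 genes with at least this level, 92% were open in both libraries. The part of CpG content in the count was not tested. A second list of 60 other mitotic genes, such as Knl1 and Foxm1, had a peak in 60 of 60, and 40 of 40 DNA replication genes had one. The 3 highest of the other mitotic genes by mean percentile rank over the libraries were Fzr1, with values of 6.72 and 23.0 in replicates 1 and 2, Cdc27, with 6.57 and 14.7, and Cenpp, with 4.91 and 14.9. Fzr1 activates and Cdc27 belongs to the ubiquitin ligase that ends mitosis, and Cenpp is a centromere protein.

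The peaks were of middle to high strength. The value of a promoter is that of its strongest peak, in the signal that the authors deposited, whose values are whole multiples of a small step in each library. Its median over the 49 open mitotic genes was 2.86 in replicate 1 and 6.01 in replicate 2, against 2.11 and 4.00 over all genes with a peak at a coding start. Values ran from 0.961 to 5.95 in replicate 1 and from 1.36 to 16.8 in replicate 2. The middle gene stood at percentile 67.8 of all genes with a promoter peak in replicate 1 and at 67.5 in replicate 2. Above the median of all such genes were 33 of 49 in replicate 1, against 49.9% of all genes, and 42 of 49 in replicate 2, against 50%. Only 3 of them, Kifc1, Ncapg and Ect2, had values among the highest 10% of genes in both libraries, against 6.71% of all open genes, and 7 lay below the median in both, against 40.7%. The 60 other mitotic genes had medians of 2.84 and 6.86, and the 40 DNA replication genes 2.84 and 6.45, both close to the medians above. In a tissue library a promoter open in fewer cells and a promoter less open in each cell cannot be told apart.

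**Figure D1:**
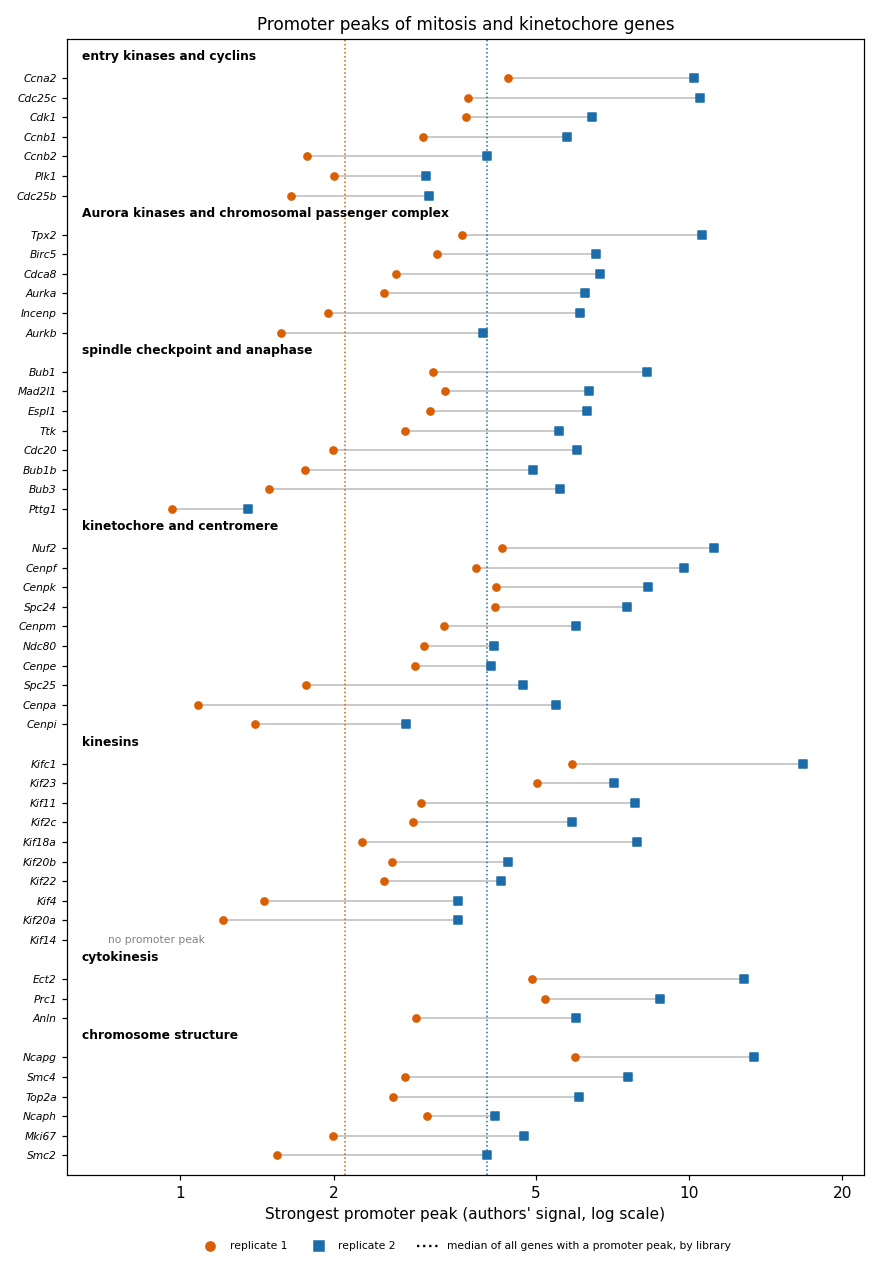
Value of the strongest promoter peak of each mitosis and kinetochore gene, in the authors' signal on a log scale, grouped by role and sorted within a role. Circles are replicate 1, squares are replicate 2, grey lines join the libraries of a gene and dotted lines mark the medians of all genes with a promoter peak, 2.11 and 4.00. Kifc1, Ncapg and Ect2 stand farthest to the right, Pttg1 farthest to the left, and Kif14 has no promoter peak.

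Among the kinases and cyclins that start mitosis, all 7 promoters were open, with values of 1.65 to 4.40 in replicate 1 and 3.04 to 10.5 in replicate 2. Ccna2, the A-type cyclin, had 4.40 and 10.2. Cdc25c, a phosphatase that removes the inhibitory phosphates from Cdk1, had 3.67 and 10.5. Its relative Cdc25b had the lowest mean rank of the group, at 1.65 and 3.09. Cdk1 itself had 3.64 and 6.43, and its partners Ccnb1 and Ccnb2, the B-type cyclins, had 3.00 and 5.76 and 1.77 and 4.00. Plk1, the polo-like kinase that acts from centrosome maturation to cytokinesis, had 2.00 and 3.04, below the medians of all genes in both libraries.

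The Aurora kinases and the chromosomal passenger complex, which corrects faulty attachments of chromosomes, had 6 of 6 promoters open. Tpx2, a spindle assembly factor that activates Aurora A, had the strongest peak of this group at 3.57 and 10.6. Birc5 (survivin), the subunit that brings the complex to centromeres, had 3.19 and 6.56. The kinase of the complex, Aurkb, had the weakest peak, at 1.57 and 3.93, below those of its partners Incenp, at 1.95 and 6.11, and Cdca8 (borealin), at 2.66 and 6.69. Aurka, the kinase of the spindle poles, had 2.51 and 6.24.

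The spindle checkpoint and anaphase genes held the weakest peak of all. Bub1, a checkpoint kinase at kinetochores, had the highest mean rank of the 8, with 3.14 and 8.28. Mad2l1, the checkpoint protein that captures Cdc20, had 3.31 and 6.35, the higher value of the pair in replicate 1. Pttg1 (securin), the inhibitor of separase that is destroyed at anaphase, had 0.961 and 1.36, the lowest value among the 49 genes in each library. Espl1 (separase), the protease that securin restrains, had 3.09 and 6.31, so the promoters of this pair differed by more than the libraries did. Of the others, the kinase Ttk had 2.76 and 5.55, Cdc20, the activator of the anaphase ubiquitin ligase, 1.99 and 6.01, Bub1b (BubR1) 1.76 and 4.93, and Bub3, the protein that brings Bub1 to kinetochores, 1.49 and 5.57.

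The 10 kinetochore and centromere genes spanned 1.08 to 4.28 in replicate 1 and 2.77 to 11.2 in replicate 2. Nuf2 and Ndc80 form the microtubule-binding end of the Ndc80 complex. Nuf2 had 4.28 and 11.2, the strongest peak of the group, while Ndc80 had 3.01 and 4.12. The other end of the complex, Spc24 and Spc25, had 4.15 and 7.55 and 1.77 and 4.70. In replicate 2 the promoters of this stable complex thus ran from 4.12 to 11.2. Cenpf, a large kinetochore protein, had 3.81 and 9.75, and the motor Cenpe had 2.90 and 4.07. Of the inner kinetochore proteins, Cenpk had 4.17 and 8.30, Cenpm 3.29 and 5.99, and Cenpi, the lowest by mean rank, 1.40 and 2.77.

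Kinesins, motors that move along microtubules, held the strongest peak of replicate 2 and the only gene without a peak at a coding start. Kifc1, a motor that walks to the minus end and gathers spindle poles, had 5.87 and 16.8. Kif23, the centralspindlin motor of the cleavage plane, had 5.03 and 7.11, Kif11, which pushes spindle poles apart, 2.97 and 7.82, and Kif18a, which aligns chromosomes, 2.27 and 7.91. Kif2c, which shortens microtubules at centromeres, had 2.86 and 5.87, Kif20b 2.61 and 4.40, and Kif22, a motor on chromosome arms, 2.51 and 4.26. Kif20a, which carries the passenger complex to the spindle midzone, was lowest by mean rank at 1.21 and 3.51, next to the chromosome motor Kif4 at 1.46 and 3.51.

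Kif14, a motor needed for cytokinesis, had no peak within 500 bp of a coding start. A peak with values of 3.30 and 6.69 lay at chr1:136466201-136466400, with its centre at position -1634 from the nearest coding start, at the start of an annotated non-coding transcript of Kif14. With the starts of all annotated transcripts, a choice made after the data were seen, or with a window of 2000 bp, the count was 50 of 50.

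Of the cytokinesis genes, Ect2, the exchange factor that activates RhoA at the cleavage furrow, had 4.91 and 12.8, and Prc1, which bundles midzone microtubules, had 5.20 and 8.77. Anln (anillin), the scaffold of the contractile ring, had the weakest of the 3, with 2.90 and 5.98, still above the medians of all genes. Of the chromosome structure genes, Ncapg, a condensin subunit, had 5.95 and 13.4, the highest value of all in replicate 1. Its partners in condensin were lower. The core subunits Smc4 and Smc2 had 2.76 and 7.58 and 1.55 and 4.01, and Ncaph had 3.06 and 4.14. Top2a, the topoisomerase that untangles sister chromatids, had 2.62 and 6.06, and Mki67, the protein that coats mitotic chromosomes and is used as a mark of dividing cells, had 1.99 and 4.74.

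The strongest peaks lay close to the start. The centre of the strongest peak lay within 150 bp of a coding start in 47 of the 49 genes in replicate 1, against 78.5% of all genes with a promoter peak, and in 43 in replicate 2, against 78.3%. It lay before the start in 42 in each library, against 67.3% of all such genes in replicate 1 and 72.7% in replicate 2. The median positions were -47 and -53, against -28 and -36 over all genes, and the median widths were 220 and 200 bp, against 220 bp over all genes in each library. The strongest peaks of the libraries overlapped in 48 of 49 genes, against 93.1% of all genes. Smc2 was the exception, its peak centred at position -2 in replicate 1 and at -262 in replicate 2. Kif4 was the gene whose peak lay farthest downstream, with its centre 244 and 274 bp after its GENCODE coding start. The listed RefSeq start of Kif4 lies inside the peak of each library and after its centre, so this distance depends on the annotation. The share of the promoter window that fell in intervals with a deposited false discovery rate under 0.05 had medians of 42.9% and 57.6% over the 50 genes. Over all genes, with or without a promoter peak, the medians were 17.5% and 33.3%.

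For 5 of the genes a coding start of another gene pointed the other way within 1000 bp, against 9.95% of all genes. These were Kif20a with Brd8 at 12 bp, Cenpk with Ppwd1 at 133 bp, Aurka with Cstf1 at 146 bp, Cdca8 with 9930104L06Rik at 157 bp and Smc4 with Ift80 at 168 bp. At these 5 promoters a peak cannot be assigned to either gene of the pair. The arrangement was present in 21 of the 60 other mitotic genes and in 11 of the 40 DNA replication genes.

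The libraries differed in scale. Replicate 1 had 61744 peaks and 112201 footprints, and replicate 2 had 131460 and 261231. The promoter value was higher in replicate 2 for 49 of 49 mitotic genes, against 92.6% of all genes open in both. The median log2 difference, replicate 2 minus replicate 1, was 1.21 over the mitotic genes and 1.02 over all genes, and 31 of 49 lay above 1.02, against 50% of all genes. Set against the median of all genes, the mitotic genes were thus 0.19 higher in replicate 2 on the log2 scale, and single genes spread around their own median with an SD of 0.40. Instruments are named for replicate 1 only, and no read totals were at hand. The part of depth or of tissue handling in this difference was not tested.

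Cenpa, the histone H3 variant that marks centromeres, differed most between the libraries, with 1.08 in replicate 1 and 5.47 in replicate 2, a log2 difference of 2.34. Bub3 followed at 1.90, Kif18a at 1.80 and Incenp, the scaffold of the passenger complex, at 1.64. The smallest differences were those of Ncaph at 0.44, Ndc80 at 0.46, Cenpe at 0.49 and Pttg1 at 0.50. These spreads set how far single genes can be ranked, since Cenpa lay at the bottom of the list but for Pttg1 in replicate 1 and close to its middle in replicate 2.

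**Figure D2:**
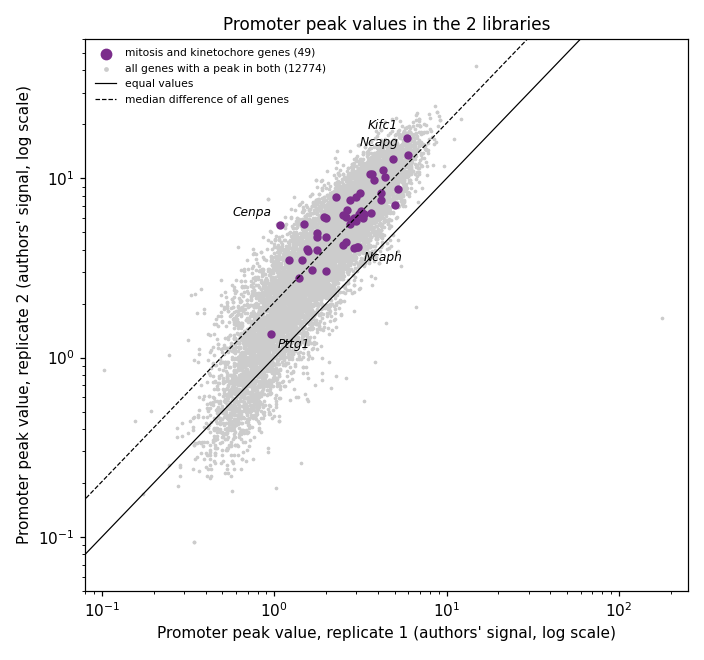
Promoter peak values in replicate 2 against replicate 1, in the authors' signal with log scales on both axes, for the 49 mitosis and kinetochore genes (purple) and all 12774 genes open at a coding start in both libraries (grey). The solid line marks equal values and the dashed line the median log2 difference of all genes, 1.02. All purple points lie above the solid line, with Cenpa farthest above it.

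Marker genes of the tissue were checked at the same windows. Promoter peaks were present in both libraries in 7 of 10 granule cell lineage genes and in 6 of 8 Purkinje cell genes, against 58.9% of all genes. In the granule cell lineage Barhl1 had no peak, Pax6 and Mfap4 had one in replicate 2 only, and the values of the 7 ran from 0.587 for Atoh1 to 1.72 for Zic1 in replicate 1 and from 0.492 for Atoh1 to 3.86 for Ptch1 in replicate 2. Among the Purkinje cell genes Pcp2 and Skor2 had no peak, and the values of the 6 ran from 0.755 and 0.898 for Car8 to 3.18 and 4.76 for Pcp4. No gene of the 5 microglia, 5 liver, 5 skeletal muscle or 6 red blood cell markers had a peak in both, and Kdr was the only one of 6 endothelial markers with a peak in both.

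The CHR was frequent in the mitotic promoters and lay close to the start. It was present on either strand in 32 of the 42 listed genes (76.2%), against 19.4% of all 16442 genes with a listed promoter. It was present in 25 of 51 other mitotic genes and in 7 of 33 DNA replication genes. Within 50 bases of the start, a window chosen after seeing where the matches lie, it was present in 28 of 42 mitotic genes (66.7%), in 19 of 51 other mitotic genes, in 2 of 33 DNA replication genes and in 4.91% of all genes. A match describes letters in the sequence and not a bound site.

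Open promoters in general did not share these frequencies. Over the 10064 listed genes with a promoter peak in each library, 15.6% had a CHR, 4.16% a CHR within 50 bases of the start, 43.3% a CCAAT box, 17.8% at least 2 CCAAT boxes and 4.82% an E2F word. Among the 41 such mitotic genes, 28 had a CHR within 50 bases of the start.

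**Figure D3:**
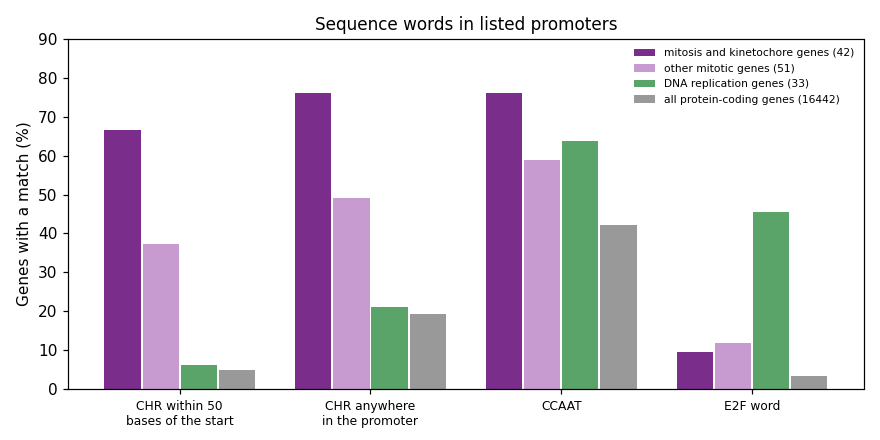
Share of genes (%) with each sequence word in a listed promoter, for the 42 mitosis and kinetochore genes with a listed promoter, 51 other mitotic genes, 33 DNA replication genes and all 16442 genes. The share with a CHR within 50 bases of the start is 66.7% in the first list and 4.91% over all genes, and the E2F words are most frequent in the DNA replication genes.

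The matches gathered at the start itself. Of 44 distinct CHR matches in the mitotic promoters, 30 lay within 50 bases of the start, against 22.6% of all CHR matches. The other mitotic genes shared this, with 21 of 31 matches, and the DNA replication genes had 2 of 9. The median position of the 30 was 7 bases after the start. The 25 bases that begin at the start held a match in 33.3% of the mitotic genes, against 1.42% of all genes. The word on the gene strand was TTTGAA at 19 of these 30, TTCGAA at 2 and TTCAAA, the reverse complement of TTTGAA, at 9. TTCGAA is its own reverse complement, so it has no orientation. The listed start was within 50 bases of a GENCODE coding start for 40 of the 47 promoters, which limits how finely these positions can be read.

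By role, a CHR anywhere in the promoter was found in 8 of 9 listed kinesins, 3 of 3 cytokinesis genes, 4 of 5 entry genes, 4 of 5 chromosome structure genes, 6 of 8 checkpoint and anaphase genes, 2 of 3 passenger complex and Aurora genes and 5 of 9 kinetochore genes. The 10 listed genes without the letters were Birc5, Ccnb1, Cenpe, Cenpi, Cenpk, Kif18a, Mad2l1, Ncaph, Nuf2 and Pttg1. In Kif2c, Mki67, Kif14 and Cenpm the CHR lay farther than 50 bases from the start. The listed promoters of Kif14 and Kif2c did not touch a peak in each library, so their letters lie outside the peaks described above.

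CCAAT boxes had the same frequency and another place. They were present in 32 of 42 mitotic genes (76.2%), against 42.2% of all genes, in 30 of 51 other mitotic genes and in 21 of 33 DNA replication genes. At least 2 distinct boxes were present in 20 of the mitotic genes, against 15.3% of all genes, and Top2a had 6. The other mitotic genes had at least 2 in 19 of 51 and the DNA replication genes in 14 of 33. The median position of the boxes was -65 in the mitotic genes, -73 and -49.5 in these lists and -89 over all genes. The stretch from -75 to -51 held a box in 35.7% of the mitotic genes, against 9.34% of all genes, and was the highest 25-base step in each. Both elements were present in 28 of 42, against 9.03%, and a CHR within 50 bases of the start together with a CCAAT box in 25, against 2.59%. The whole promoter table held 426 genes with that pair, of which the mitotic genes were 5.87%.

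**Figure D4:**
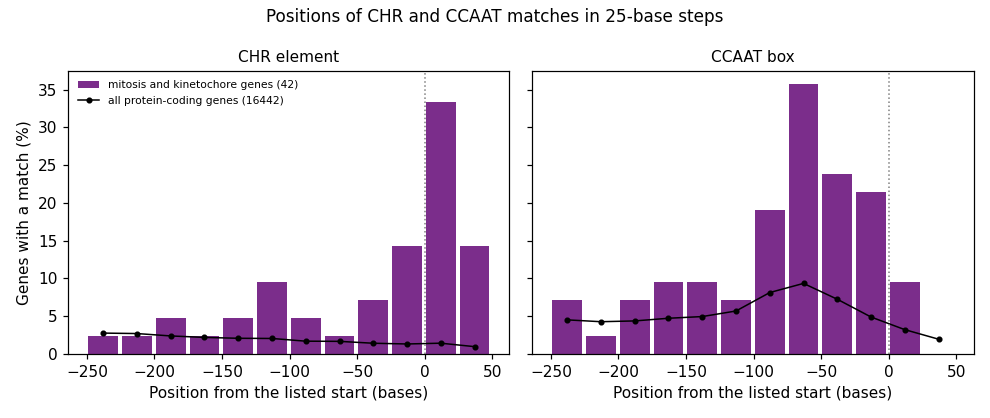
Share of genes (%) with a CHR (left) or a CCAAT box (right) in each 25-base step of the listed promoter, by distance in bases from the listed start, for the 42 mitosis and kinetochore genes (bars) and all 16442 genes (line). The bars peak at 33.3% just after the start for the CHR and at 35.7% from -75 to -51 for the CCAAT box.

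At 25 CHR elements near the start with a CCAAT box before them, the median distance from the beginning of the nearest box to that of the CHR was 35 bases, with quartiles of 31 and 51. Over the 348 such elements of all genes it was 83.5 bases. A spacing of 20 to 50 bases was found at 16 of the 25, against 24.1% of those of all genes. Cdc20, Cdc25b, Top2a and Ttk each had exactly 35 bases. Neighbouring CCAAT boxes in 1 promoter gave 31 pairs with a median spacing of 34 bases, against 49 bases over all genes. Of the 31 pairs, 9 were 28 to 36 bases apart, against 15.4% of all pairs. Neither range, 20 to 50 or 28 to 36 bases, was among the planned settings. Both lie around the medians of the mitotic genes, so these shares favour the mitotic genes.

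E2F words were less frequent than the other elements. The words TTTCCCGC, TTTCGCGC, TTTGCCGC and TTTGGCGC, searched on both strands and added after the files were read, are core forms of the site of E2F factors, which drive genes of the S phase. They were present in 4 of 42 mitotic genes, Cdk1, Cenpm, Kif18a and Ncapg, against 3.33% of all genes, and in 15 of 33 DNA replication genes.

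Genes with and without the CHR near the start had promoter peaks of like strength. The 28 with it had median values of 2.64 and 6.00, ranging from 1.08 to 5.95 in replicate 1 and from 3.04 to 16.8 in replicate 2. The 13 open genes without it had medians of 3.00 and 5.87, ranging from 0.961 to 4.28 and from 1.36 to 11.2. The ranges overlapped over most of their length.

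Footprints, short stretches within open chromatin that are cut less than their flanks, were deposited as positions only. At least 1 was present within 500 bp of a coding start in both libraries in 49 of 50 genes, against 56.5% of all genes, the exception again being Kif14. Each library alone also gave 49, against 57.7% in replicate 1 and 63% in replicate 2. All genes here include those without a promoter peak, since 12774 had a promoter peak in both libraries and 12242 a footprint in both. Footprints were not compared over open genes alone. The 50 genes had 172 footprints in replicate 1 and 297 in replicate 2. The medians per gene were 3 and 5.5, against 2 and 3 over all genes, open or not. More were called in replicate 2 at 39 genes, the same number at 9, and fewer at Kif20a, with 10 and 7, and at Top2a, with 5 and 4. The longest in the promoters printed above ran from -211 to -172 at Kifc1 in replicate 1 and from -215 to -170 in replicate 2, where neither element was matched. In Ncapg a footprint ran from -68 to -35 in replicate 1 and from -69 to -28 in replicate 2, and the second reached the CHR. In Kif23 the footprint seen in both libraries ran from -42 to -22 and from -42 to -21, upstream of both its CCAAT box and its CHR.

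Few matches lay inside footprints. With footprints extended by 5 bp at each end, a CCAAT box lay in a footprint in both libraries in 8 mitotic genes, against 5.43% of all genes. These were Bub1, Ccnb2, Cenpa, Cenpf, Ect2, Kif11, Plk1 and Top2a, and in Cenpf a different box was covered in each library. Among genes with a match and a promoter footprint in both libraries, this was 8 of 31 mitotic genes, against 21.1% of all such genes. Without the extension the count fell to 2. With the extension, a CHR lay in a footprint in both libraries in 4 genes, against 0.365% of all genes. Among genes with a match and footprints this was 4 of 31, against 3.95%. Without the extension, only the CHR of Kif11 lay inside in both. An E2F word did so in 1 gene, Kif18a, against 0.359%, and among genes with a match and footprints in 1 of 4, against 12.6%. Counted by match, 5 of 33 mitotic CHR matches in a replicate 1 peak lay in a footprint, against 14.7% over all genes. In replicate 2 it was 9 of 32, against 22.3%. For CCAAT boxes in a peak the shares were 21.2% and 43.1%, against 25.9% and 41.3%. The absence of a footprint says nothing about a factor.

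The 4 CHR elements inside footprints extended by 5 bp in both libraries were those of Ccnb2, Kif11, Mki67 and Plk1. Without the extension, only that of Kif11 lay inside in both. Up to 45 bases on either side of each are printed because these are the places where the CHR letters and the footprints met in both libraries, and they were picked after their values were seen. Capitals mark CHR and CCAAT letters as above.
Ccnb2, chr9:70421505-70421595, minus strand: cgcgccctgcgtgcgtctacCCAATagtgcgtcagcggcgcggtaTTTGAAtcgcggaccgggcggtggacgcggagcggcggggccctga
Kif11, chr19:37376318-37376413, plus strand: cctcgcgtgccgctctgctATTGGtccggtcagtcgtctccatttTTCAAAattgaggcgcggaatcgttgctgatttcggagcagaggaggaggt
Mki67, chr7:135716445-135716540, minus strand: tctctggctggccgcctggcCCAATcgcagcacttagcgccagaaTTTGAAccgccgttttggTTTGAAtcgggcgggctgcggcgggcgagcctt
Plk1, chr7:122159420-122159484, plus strand: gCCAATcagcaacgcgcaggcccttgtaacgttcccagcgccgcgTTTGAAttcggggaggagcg
The CHR began 4 bases after the start in Ccnb2, 30 after it in Plk1, and at positions -19 in Kif11 and -116 in Mki67. The Kif11 footprint spanned 20 bp in replicate 1 and 30 bp in replicate 2, and it covered the CHR whole in both. In Plk1 the footprint of 22 bp in replicate 1 covered all but the last letter of the CHR. That of 15 bp in replicate 2 reached only its first letter. In Ccnb2 footprints of 12 and 11 bp covered part of the CHR, in replicate 2 only its first letter. In Mki67 a footprint of 13 bp covered it whole in replicate 1 and another of 13 bp covered part of it in replicate 2. In all 4 genes a CCAAT box lay upstream of the CHR on the printed strand, 25 bases before it in Ccnb2, 26 in Kif11 and 44 in Plk1.

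Away from the promoters these genes did not stand apart in number of open elements. A distal peak shared by both libraries, over 1000 bp from any coding start, lay within 50 kb of 34 of the 50 genes, against 71.9% of all genes. Replicate 1 alone gave 37, against 78.7%, and replicate 2 alone gave 49, against 90.7%. The median number of shared peaks per gene was 2 in the mitotic genes and 2 over all genes. Ccnb1 was the only gene with no distal peak in replicate 2, and 16 had no shared one, among them Ncapg, Prc1, Plk1 and Ndc80.

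The 114 shared distal peaks had median values of 1.25 in replicate 1 and 2.13 in replicate 2, against 0.942 in replicate 1 over all 24085 shared distal peaks. Of these, 63 were intergenic, 30 lay in an intron of another protein-coding gene, 14 in an exon of a protein-coding gene and 7 in an intron of the mitotic gene itself. The Kif14 peak at the non-coding start was counted with these 7, although it spans the first annotated base of the gene. Exons of non-coding transcripts were not used in this sorting. A peak near a gene is not shown to act on it, and the median locus held 3 other protein-coding genes.

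Aurkb had the most shared distal peaks, with 15, in a locus with 6 other protein-coding genes. They included a cluster 17459 and 17949 bp after its start, chr11:69063021-69063200 with 3.45 and 5.77 and chr11:69063501-69063700 with 3.49 and 4.42, which were among the strongest distal peaks near any of the 50 genes. Both exceeded the peak at the Aurkb start. Top2a followed with 9, Cenpm with 7, and Birc5 and Kif2c with 6 each. The Top2a peaks had values of 0.903 to 2.48 in replicate 1, and 5 of the 9 lay in introns of another gene. All 4 loci held between 4 and 7 other protein-coding genes.

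**Figure D5:**
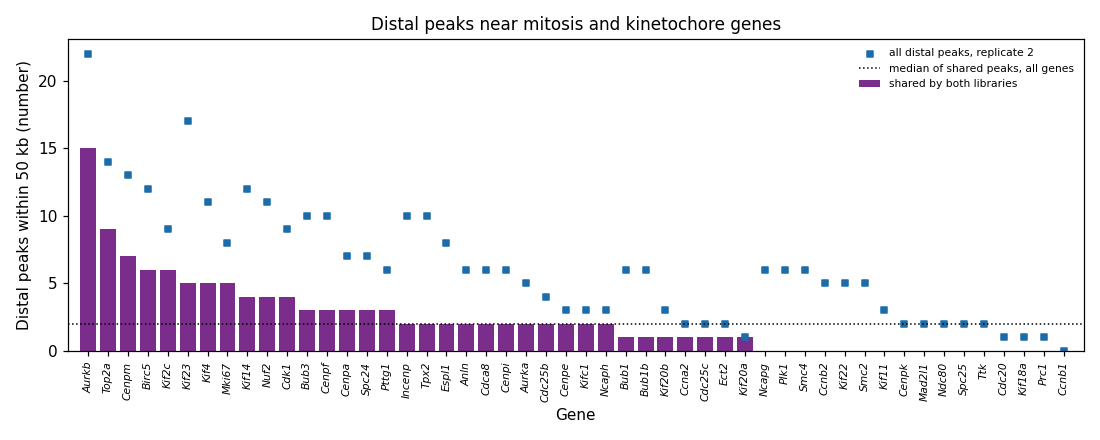
Number of distal peaks within 50 kb of each mitosis and kinetochore gene. Bars are peaks shared by both libraries, squares are all distal peaks of replicate 2 and the dotted line is the median of shared peaks over all genes, 2. Aurkb has 15 shared peaks, 16 genes have none and Ccnb1 has no peak in replicate 2 either.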

How the data were processed

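DNase-seq peaks, footprints and false discovery rate intervals of 2 cerebellum libraries were used as deposited on mm10. The peak signal is the authors', in whole multiples of a small step per library with the scaling not stated, and each library was called by itself, per the labels' description files. The authors deposited a less strict and a stricter peak list, and the less strict one was used. The deposited intervals carry a q-value (false discovery rate of the cut rate) under 0.05. Footprints were deposited with 0.01 on every line, which leaves their positions. Which aligner and callers were run, and in which versions, the sources used here do not state. The depth in reads is unknown, and no interval was computed.

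Genes came from GENCODE M21, as all protein-coding genes on the X chromosome and the autosomes. A promoter peak overlapped the 500 bp around any coding start, and distal peaks were replicate 1 peaks over 1000 bp from coding starts that overlapped a replicate 2 peak by at least 1 bp. Overlaps used bedtools 2.31.1, pandas 2.3.3 and numpy 2.4.6 in Python 3.11.15, checked on simulated data. Sequences came from RefSeq tables (GRCm38.p6), and a gene's promoters were scanned for exact words on both strands. The members and lists were chosen with earlier results of these data known. Named genes were, in each role, the 2 highest and the lowest by mean percentile rank, the extremes of the log2 difference and the 5 with most distal peaks. The remaining genes were given more briefly. No test was made, since there is 1 group.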

Additional observations from a re-analysis of the deposited data

How the results depend on the processing

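The count of 49 mitotic genes open in both libraries ran from 48, with the most upstream coding start alone (Kif14 and Cdca8 lost), to 50, with a window of 2000 bp. It was 49 with the stricter list, where 52.3% of all genes had such a peak. Leaving out each replicate gave 49 and 49 for promoter peaks, 49 and 49 for footprints, 2.86 to 6.01 for the median value, against 4.44 for the mean of both libraries, 37 to 49 for genes with a distal peak and 10 to 18 for a CCAAT box in a footprint. As a percentile rank among all peaks of a library, the median promoter value was 94.0. The median log2 difference was 0.19 after subtracting that of all genes. A CCAAT box lay in a footprint in both libraries in 2 genes without the extension, against 8. Genes with a shared distal peak numbered 25 within 25 kb, 43 within 100 kb and 27 with the stricter list. On the gene strand alone, 24 genes had a CHR, against 11.7% of all genes, and 22 a CCAAT box, against 24.3%. Of 195 recomputed values of single genes, 194 stayed within 1 SD. The exception was Kif22, whose mean value was 10.6 with the window of 2000 bp, against 3.38. The SD is that of 2 libraries that differ in scale, so this limit was wide, with 3.10 at a mean of 3.28 for Cenpa. The stricter list gave the same promoter values as the main list. This count therefore says little about how stable the values are. No paired analysis was possible because there is 1 group and no comparison between groups.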
